A study of Mus musculus with 14 samples.

Results

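The High and the Low cells of the Sox9-eGFP mouse intestine were compared across all miRNAs, in 6 of the 14 small RNA libraries of the study. The libraries were chosen by their labels alone, 3 of High and 3 of Low, and every one of the 2030 rows of the deposited table belongs to the comparison. The mice were of strain C57BL/6J and carried a Sox9-eGFP transgene, which reports Sox9 activity as green fluorescence, and the tissue was small intestine. The other libraries, 3 of Sublow, 3 of Negative and 2 of Non-sorted cells from the same strain and transgene, enter only where they are named. No treatment is labelled for any group, and libraries were made with the TriLink CleanTag kit. Earlier work with this transgene assigned the High gate mostly to enteroendocrine cells and the Low gate mostly to stem cells of the crypt base, but a fluorescence gate is not a pure cell type, and a table of miRNAs holds none of the messenger RNAs that define these cells. The labels do not say whether libraries of a group came from separate animals, so p-values measure a spread between libraries that may be technical. That spread was pooled over all 14 libraries. The SE and p of High minus Low therefore also hold the spread within Sublow, Negative and Non-sorted cells. Libraries with the same replicate number share a code in the labels, in High, Low and the other populations alike, and what the code stands for is not given.

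A microRNA is cut from a hairpin precursor and guides a silencing complex to messenger RNAs, which it recognises mainly through its seed, bases 2 to 8 from the 5′ end. miRNAs with the same seed can repress the same messages, and hairpins that lie next to each other are often cut from a single transcript. In the intestine, Sox9 is a transcription factor of the crypt: stem cells carry a moderate amount and hormone-producing enteroendocrine cells a large amount. Enteroendocrine cells mostly no longer divide, whereas crypt stem cells cycle.

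The mature sequences below are those the comparison turned on, grouped by seed, with the seed in capitals. They come from RefSeq tables of assembly GRCm38.p6, which matched 232 of the 275 tested entries at annotated starts. The first set holds miRNAs that were higher in High cells, each with a seed of its own among the miRNAs shown.
miR-672-5p: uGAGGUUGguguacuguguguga
miR-210-3p: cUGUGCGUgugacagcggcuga
miR-139-3p: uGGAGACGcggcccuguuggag
miR-183-5p: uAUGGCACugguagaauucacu
miR-182-5p: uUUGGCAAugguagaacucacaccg
miR-22-3p: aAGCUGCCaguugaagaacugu
The next set shows miR-351-5p and miR-322-5p, neighbours in an X-linked cluster and found in High cells, each above the more abundant miRNA that shares its seed.
miR-351-5p: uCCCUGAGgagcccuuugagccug
miR-125a-5p: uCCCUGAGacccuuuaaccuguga
miR-322-5p: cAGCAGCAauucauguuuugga
miR-16-5p: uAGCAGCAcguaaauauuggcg
The miR-200 miRNAs have a pair of seeds, which differ at 1 base, and each seed occurs in a cluster that was higher in High cells and in a cluster that was not.
miR-200a-3p: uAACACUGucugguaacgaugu
miR-141-3p: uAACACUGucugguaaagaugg
miR-200b-3p: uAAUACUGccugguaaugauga
miR-429-3p: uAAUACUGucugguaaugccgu
miR-200c-3p: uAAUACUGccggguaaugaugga
The last set holds seed families that were lower in High cells.
miR-17-5p: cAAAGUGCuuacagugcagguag
miR-20a-5p: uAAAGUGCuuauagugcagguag
miR-93-5p: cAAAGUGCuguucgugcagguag
miR-92a-3p: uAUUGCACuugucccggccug
miR-25-3p: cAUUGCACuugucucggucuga
miR-221-3p: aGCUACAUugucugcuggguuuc
miR-222-3p: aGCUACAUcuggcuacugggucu
miR-148a-3p: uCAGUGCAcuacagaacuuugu
miR-152-3p: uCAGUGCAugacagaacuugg
miR-181b-5p: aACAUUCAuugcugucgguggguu
miR-181d-5p: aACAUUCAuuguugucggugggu
miR-181c-5p: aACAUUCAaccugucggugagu
miR-203-3p: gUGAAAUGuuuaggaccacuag
miR-802-5p: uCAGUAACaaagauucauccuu

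Values are RPM, reads scaled over the miRNA entries so that each library sums to 1e+06. The smallest listed value of the 6 libraries lay between 0.76 and 5.55. Their depth was estimated from the steps between low values, with the smallest value assumed to be about 10 reads. On that assumption the depth was 1.89 to 13.4 M reads (M, 1e+06), and a value of 0 stands for fewer than about 10 reads. By this estimate High 3 was the shallowest and High 1 the deepest. Of the 2030 entries, 588 reached a value of 10 in at least 3 of the 14 libraries and were tested, 275 at the annotated start of a mature miRNA and 313 with a start shifted from it. High 2 and Low 2 stood apart from the other 4: they listed the embryonic stem cell miRNA miR-295-3p at 928 and 395, while the other 4 listed it at 0. The same miRNA was listed in Sublow 2, Negative 1, Negative 2 and both Non-sorted libraries, which are the 5 libraries run on lane L006, and in no library run on L005 or L008. Counts are therefore given also without High 2 and Low 2, and the part of the lane was not tested. By the labels, High 1, High 2, Low 2 and Low 3 were combined over lanes, High 3 was run on lane L008 and Low 1 on lane L005. Pearson's r of the log2 values across entries was 0.835 to 0.929 within High, 0.902 to 0.938 within Low and 0.780 to 0.928 between them.

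High cells differed from Low cells in 165 of the 588 tested entries (28.1%), 47 of them higher in High (7.99%) and 118 lower (20.1%), at an adjusted p under 0.05 in limma. The High and Low libraries did not overlap in 255 entries (43.4%). Without High 2 and Low 2 the counts were 27 higher and 88 lower. Entries that passed made up a large part of the library totals: those higher in High held 23.97% (SD 1.74) of the summed values in High and 11.7% (1.38) in Low, and those lower in High held 14.4% (0.62) in High and 24.9% (1.66) in Low. Hairpin copies of a mature sequence are listed as separate entries, some at nearly the same value, so these percentages may not be shares of reads. Because every library has the same total, the direction of small differences depends on the scaling. Rescaling by median ratios moved the differences up by a median of 0.32 on the log2 scale, and some entries with low values by other amounts. The rescaling turned the split into 81 higher and 70 lower, and quantile normalization gave 61 and 80. The median difference of all tested entries was −0.11, and 0.19 after rescaling. In bulk libraries such as these, fewer cells of a type and less of a miRNA per cell cannot be told apart.

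**Figure D1:**
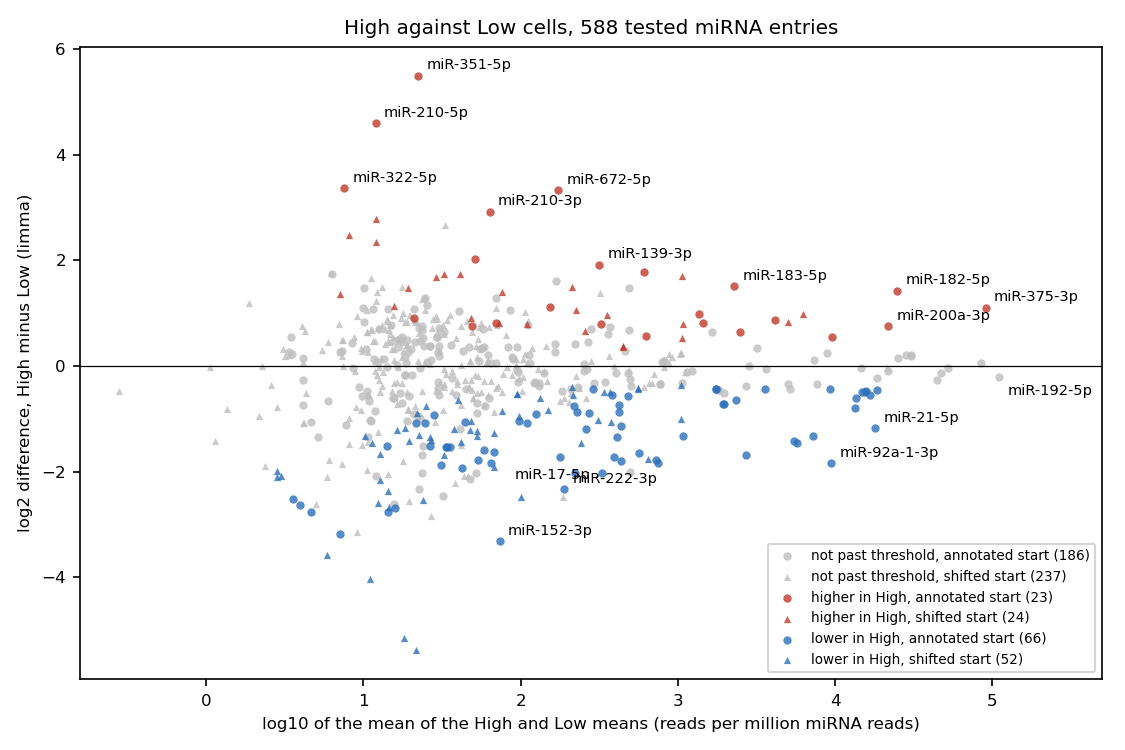
Each point is a tested entry, with the log10 of the mean level in RPM on the horizontal axis and the log2 difference of High minus Low from limma on the vertical axis. Circles are annotated starts and triangles shifted starts, red points were higher in High (23 and 24) and blue points lower (66 and 52). The differences of miR-351-5p and miR-210-5p depend on the pseudocount, since these were listed at 0 in Low, and tested entries at 0 in all 6 libraries are not drawn.

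More entries passed where values were high. Among annotated starts, 31 of 152 passed at a mean below 100 RPM (20.4%), 28 of 65 between 100 and 1000 (43.1%) and 30 of 58 at 1000 or more (51.7%). The median SE of the log2 difference fell over these classes from 0.51 to 0.22 and 0.14. A rare miRNA that did not pass was therefore measured with an error several times that of an abundant one. Of all 275 annotated starts, 89 passed (32.4%), 23 higher in High (8.36%) and 66 lower (24%). Hairpin copies of a mature sequence count separately here but only once in the lists below, so list counts and these shares differ in unit.

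The miRNAs found in High and nearly absent from Low came from hairpins of low expression. miR-351-5p was listed at 46.2, 50.1 and 37.0 RPM in High and at 0 in all 3 Low libraries. It was also at 0 in the 8 libraries of Sublow, Negative and Non-sorted cells, so that the 3 High libraries were the only ones of the 14 to list it. Its cluster neighbour miR-322-5p was at 14.97, 16.4 and 11.6 in High and at 0, 0 and 2.19 in Low, and at 3.92 or less in the other libraries. The smallest value that a Low library listed for any entry was between 1.32 and 2.60, below each of the miR-351-5p values in High. miR-322, miR-503 and miR-351 are cut from a single X-linked transcript, known for its part in slowing the cell cycle during muscle differentiation. miR-503-5p was listed in High 1 alone, at 1.64, and was not tested. Since Low was listed at 0, no fold change is printed for miR-351-5p. miR-351-5p, miR-322-5p and miR-210-5p met the filter on low values through the 3 High libraries alone, so their places among the entries higher in High followed from how they were admitted, and no p is given for them. Of the 588 tested entries 11 were admitted through High alone, 6 of which are in the count of higher entries, and 3 through Low alone, 1 of which is in the count of lower entries.

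miR-351-5p and miR-322-5p carry seeds of larger families. The seed of miR-351-5p is that of miR-125a-5p, and 10 of 24 bases match when the sequences printed above are aligned at the 5′ end without gaps. The summed level of that seed, CCCUGAG, was 413, 396 and 352 in High and 274, 146.4 and 229.6 in Low, with no overlap (log2 difference 0.88, SE 0.26, adjusted p = 0.0206). miR-125a-5p provided most of it, at 366.98, 346 and 315 in High and 274, 143.7 and 229.6 in Low, and did not pass alone (adjusted p = 0.0614). The High sums also hold miR-351-5p, which no Low library listed. This seed was singled out after its values were seen, so the p of the sum is no separate support. The seed of miR-322-5p is that of miR-16-5p, and 12 of 22 bases match in the same alignment. Here the abundant member set the sum: the seed AGCAGCA came to 1636 ± 109.9 (SD, n = 3) in High and 2591 ± 183.8 in Low, a log2 difference of −0.66 (limma, adjusted p = 0.00333, and 0.0952 after rescaling).

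miR-210, the miRNA best known as a target of hypoxia-inducible factor, was higher in High from its main arm. miR-210-3p was at 110.4, 102 and 126.3 RPM in High and 10.4, 15.1 and 17.1 in Low. The groups lay far apart, at a ratio of means of 7.94 (log2 difference 2.92, SE 0.25, adjusted p = 9.28e-06). miR-210-5p, the minor arm, was at 23.0, 17.1 and 31.7 in High and at 0 in each Low library, and at 3.09 or less in the other libraries. Among annotated starts, miR-351-5p and miR-210-5p were the 2 entries that all High libraries listed and no Low library did, and 0 showed the reverse. Shifted starts were not searched for either pattern.

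miR-672-5p, a rodent miRNA with an X-linked hairpin, had the largest ratio of means among the miRNAs named as higher in High whose Low libraries listed them. It was listed at 309, 279.7 and 363.2 in High and at 31.5, 32.2 and 27.8 in Low. The 3 libraries of each group were close together, and the ratio of means was 10.4 (log2 difference 3.33, SE 0.40, adjusted p = 9.26e-05). miR-139-3p, whose hairpin lies in an intron of the phosphodiesterase gene Pde2a, was at 469.8, 441 and 586 in High and 156, 107 and 132.3 in Low (1.92, SE 0.22, adjusted p = 5.74e-05). The opposite arm, miR-139-5p, was also higher in every High library than in any Low library, at 96.1, 60.2 and 140.3 against 59.2, 29.98 and 29.5. Its error, estimated over all 14 libraries, was large (SE 0.55), and it did not pass (adjusted p = 0.104).

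miRNAs of endocrine and neuroendocrine cells were higher in High in part. Of 15 entries on this list, 12 were tested, of which 5 were higher and 0 lower, with and without rescaling. High and Low did not overlap in 8 that were higher in High and 1 that was lower, beside 43.4% of all tested entries. Without overlap, miR-127-3p did not pass, at 263, 235 and 264 in High and 73.4, 98.4 and 77.8 in Low. The lower member, miR-7a-3p of the first hairpin, was at 37.6, 44.4 and 31.8 against 57.3, 46.1 and 50.9. The list's median log2 difference was 0.93, against −0.16 for all annotated starts, of which 8.36% were higher. miR-375-3p, the leading miRNA of pancreatic islets and gut endocrine cells, was at 118336, 135119 and 117014 in High and 71632, 53119 and 49474 in Low. Its share of the library total was therefore larger in each High library than in any Low library (1.10, SE 0.23, adjusted p = 0.00413).

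miR-183-5p and miR-182-5p, from a cluster that is prominent in sensory cells, showed the smallest error of the group. miR-183-5p was at 3291, 3479 and 3391 in High and 1211, 1093 and 1274 in Low (1.51, SE 0.11, adjusted p = 3.44e-06). miR-182-5p was at 36201, 39315 and 33101 in High and 12485, 14436 and 13448 in Low (1.43, SE 0.10, adjusted p = 1.39e-06). The middle hairpin of the cluster, miR-96, was listed at 7.06 or less in every library and was not tested.

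A few endocrine and neuronal miRNAs were less settled. miR-1224-5p, made by splicing of a short intron, was at 593, 1288 and 959.6 in High and 331, 180.97 and 294.5 in Low (1.79, SE 0.45, adjusted p = 0.0106). Its adjusted p was 0.00155 to 0.167 over the alternatives, above 0.05 with a pseudocount of 0.1 and without High 2 and Low 2. miR-153-3p, encoded in an intron of the secretory granule gene Ptprn2, was at 70.5, 127.5 and 55.0 in High and 19.7, 20.1 and 16.7 in Low (2.02, adjusted p = 0.0432), and lost its call in 11 of 16 alternatives (adjusted p 0.00142 to 0.349). miR-7, an islet and neuronal miRNA, did not pass: miR-7a-5p from the first hairpin was at 37058, 27530.3 and 26248 in High and 26665, 25669 and 25380.4 in Low (0.21, SE 0.26, adjusted p = 0.621). miR-7b-5p, at 9772 ± 2021 (SD, n = 3) against 8107 ± 822, did not pass either (adjusted p = 0.636).

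**Figure D2:**
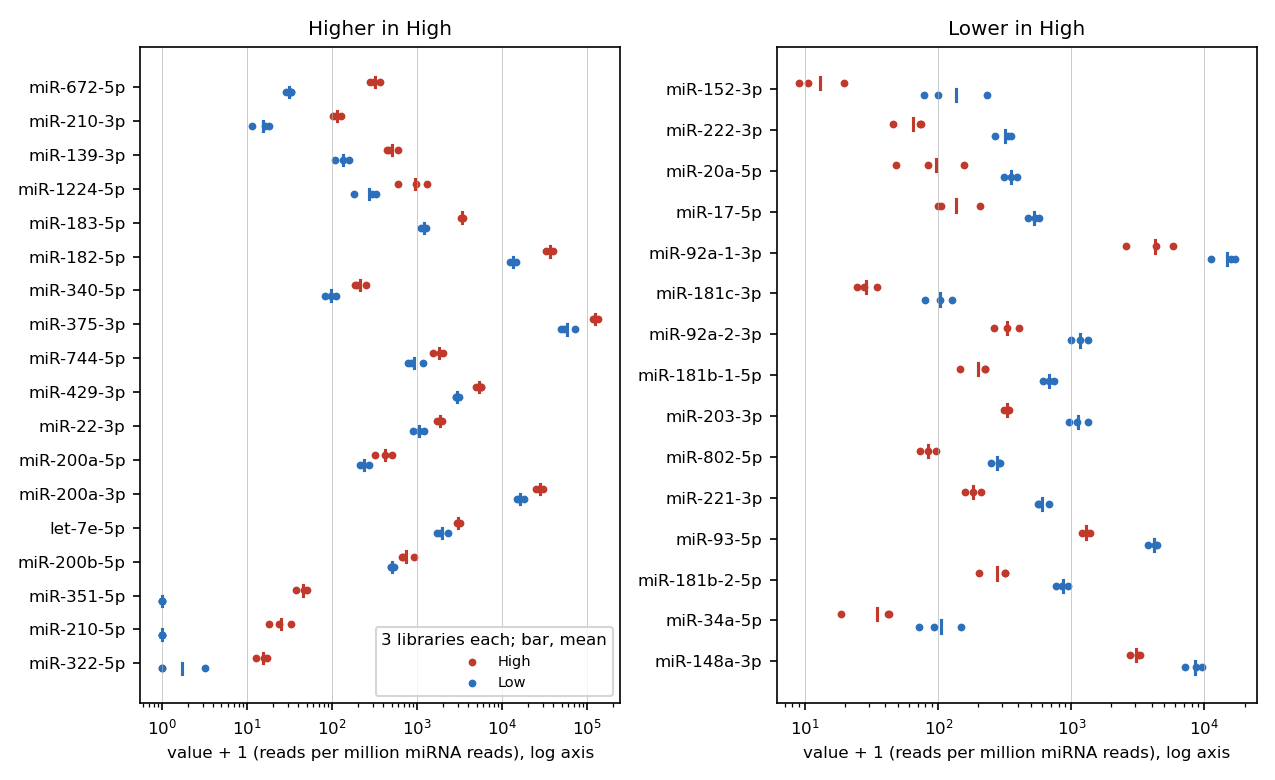
Level in each of the 3 High (red) and 3 Low (blue) libraries for the miRNAs named by the rule, as value + 1 in RPM on a log axis, with the mean as a bar. On the left are miRNAs higher in High, with miR-351-5p, miR-210-5p and miR-322-5p added, and on the right miRNAs lower in High. Points of High and Low do not overlap, which the naming rule required, and the added miRNAs met the filter through High alone.

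The miR-200 miRNAs, which keep epithelial cells from turning mesenchymal by repressing Zeb1 and Zeb2, split by their genomic cluster. All 5 tested arms of the miR-200b, miR-200a and miR-429 cluster were higher in High (log2 differences 0.55 to 0.87). None of the 3 tested arms of the miR-200c and miR-141 cluster passed (−0.092 to 0.46). miR-200a-3p was at 25018, 30316 and 27095 in High and 15841, 18131 and 14736 in Low (0.76, SE 0.13, adjusted p = 0.00107). miR-429-3p was at 4896, 5609 and 5662 against 2877, 3116 and 2828 (0.87, SE 0.13, adjusted p = 0.000416). The 3 libraries of each group lay within a narrow range for these miRNAs.

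The partners with shared seeds behaved differently in these libraries. miR-200c-3p was at 20985, 21034 and 21181 in High and 23725, 21913 and 21782 in Low, so that the groups did not overlap but differed by only −0.092 on the log2 scale (SE 0.08, adjusted p = 0.45). miR-141-3p, with 20 of 22 bases matching miR-200a-3p, was at 2790.4, 4421 and 3577 against 2744, 3241 and 2436 (0.34, SE 0.17, adjusted p = 0.154). After rescaling, miR-141-3p passed as well (0.67, adjusted p = 0.0144) and miR-200c-3p did not (0.23, adjusted p = 0.0534). The difference between the clusters was not tested. As seed sums, AACACUG was higher in High (31072 ± 3482 against 19043 ± 2137, 0.71, adjusted p = 0.00105), whereas AAUACUG, which miR-200c dominates, was at 37889 ± 818 against 33208 ± 1331 (adjusted p = 0.133, and 0.000948 after rescaling).

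The remaining miRNAs higher in High were moderate in size. miR-340-5p was at 197, 248 and 186 in High and 109.6, 81.8 and 96.2 in Low (1.12, SE 0.26, adjusted p = 0.008, and 0.0015 to 0.0859 over the alternatives, the highest without High 2 and Low 2). miR-22-3p, from the list of differentiation-linked miRNAs, was at 1715, 1975 and 1812 in High and 1060.3, 1213 and 885 in Low (0.81, SE 0.15, adjusted p = 0.00148). miR-744-5p averaged 1810 ± 244 in High and 928 ± 214.3 in Low (adjusted p = 0.0381). Its call was lost in 8 of 17 alternatives (adjusted p 0.0103 to 0.219), whereas that of miR-22-3p held in each alternative run.

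let-7e-5p stood out within the let-7 family. It was at 3154, 3026 and 2923 in High and 2274, 1873 and 1686 in Low (0.65, SE 0.22, adjusted p = 0.0465). This call was marginal and was lost in 9 of 17 alternatives (adjusted p 0.00494 to 0.168). let-7e shares a cluster with miR-99b and miR-125a, and all 5 tested arms of that cluster had positive differences (0.40 to 0.71), of which let-7e-5p alone passed. The other let-7 miRNAs, which restrain proliferation in many tissues, leaned the other way: of 9 other tested mature sequences of let-7 and miR-98, 6 were lower in High and 0 higher (24% and 8.36% of all annotated starts), but after rescaling 2 were lower and 2 higher. let-7i-5p was at 9777, 9408 and 10242 in High and 14796, 18975 and 17588 in Low (−0.80, SE 0.12, adjusted p = 0.00059, and 0.0136 after rescaling). The whole seed family came to 204027 ± 19328 in High and 231136 ± 11195 in Low and did not pass (adjusted p = 0.144).

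Among the miRNAs lower in High, the miR-17 to miR-92a cluster and its relatives formed the largest group. These clusters are driven by Myc and E2F and are known for promoting the cell cycle. Of 19 entries on the list, 16 were tested, of which 9 were lower and 0 higher, and 8 and 0 after rescaling. The list's median log2 difference was −1.54, against −0.16 for all annotated starts, of which 24% were lower.

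miR-17-5p was at 97.98, 202.8 and 104 in High and 467, 573 and 534 in Low (−2.03, SE 0.29, adjusted p = 0.000357). miR-20a-5p, with 21 of 23 bases matching it, was at 46.7, 154.8 and 83.0 against 348, 391 and 309 (−2.03, SE 0.36, adjusted p = 0.00131). In both, High 2 was the highest of the High libraries and still below every Low library. miR-93-5p, encoded with miR-106b and miR-25 in an intron of the replication gene Mcm7, was far more abundant and varied less, at 1209.7, 1305 and 1368 in High and 3760, 4428 and 4228 in Low (−1.67, SE 0.14, adjusted p = 6.51e-06). Summed over the 6 members of the seed AAAGUGC, High came to 1391, 1905 and 1588 and Low to 4714, 5633 and 5148, a log2 difference of −1.67 (SE 0.16, adjusted p = 1e-05).

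The seed AUUGCAC of miR-92a-3p and miR-25-3p carried the larger share of reads. miR-92a-3p of the miR-17 cluster was at 4358, 2551 and 5849 in High and 15793, 11174 and 17010.4 in Low (−1.84, SE 0.26, adjusted p = 0.000283). Its sequence is also encoded in the X-linked miR-106a cluster, and that copy was listed at 329 ± 70.3 (SD, n = 3) in High and 1160.1 ± 166 in Low (−1.83), so reads of the mature sequence cannot be assigned to a copy with certainty. miR-25-3p was at 2856, 2740.3 and 3401 against 7295, 8534 and 8045 (−1.41, SE 0.13, adjusted p = 1.75e-05). The third abundant member, miR-92b-3p, had a difference of the opposite sign, at 558, 530.4 and 706 in High and 417, 272 and 443 in Low, without overlap but not past the threshold (0.68, adjusted p = 0.0822, and 0.0108 after rescaling). The seed as a whole fell from 23011 ± 2785 (SD, n = 3) in Low to 7859.9 ± 2063 in High (−1.58, adjusted p = 3.69e-05).

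Not every arm of these hairpins passed. Within the miR-17 cluster 6 of 9 tested arms were lower. miR-19b-3p and miR-19a-3p, whose seed differs from those above, had differences of −0.31 (SE 0.46) and −0.54 (SE 0.58) and did not pass. In the miR-106b cluster 4 of 5 arms were lower, and miR-106b-5p was the exception (−0.69, SE 0.43, adjusted p = 0.269).

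miR-221-3p and miR-222-3p, repressors of the cell cycle inhibitor Cdkn1b and encoded side by side on the X chromosome, were both lower in High. miR-222-3p was at 71.4, 73.1 and 44.4 in High and 334.8, 265 and 349.7 in Low (−2.33, SE 0.27, adjusted p = 7.88e-05). miR-221-3p was at 209, 158 and 180.8 against 557, 569 and 676 (−1.72, SE 0.18, adjusted p = 3.76e-05). Their summed seed GCUACAU had the largest decrease among families with several members and a mean of at least 100, at 246 ± 30.2 (SD, n = 3) in High and 917 ± 98.7 in Low (−1.90, SE 0.18, adjusted p = 1e-05).

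The miR-148 and miR-152 seed, CAGUGCA, is known for repressing the DNA methyltransferase Dnmt1. Its rarest member moved most. miR-152-3p was at 9.46, 18.5 and 7.93 in High and 76.8, 229 and 99.2 in Low, a ratio of Low to High means of 11.3 (−3.32, SE 0.44, adjusted p = 0.000201), and Low 2 was the highest of the Low libraries by a wide margin. miR-148a-3p, with 18 of 21 compared bases matching, was at 3139, 2752 and 3257 against 7079, 9628 and 8616 (−1.46, SE 0.22, adjusted p = 0.000515). miR-148b-3p was at 500.1, 429.1 and 441 against 524, 536 and 563 and did not pass (−0.25, adjusted p = 0.223). The 3 members thus had differences from −3.32 to −0.25 with the same seed.

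The miR-181 miRNAs, abundant in lymphoid cells and also present in epithelia, were lower in High to very different degrees. Of 6 tested mature sequences 5 were lower, and 3 after rescaling, with a median log2 difference of −1.21, beside 24% lower and a median of −0.16 among all annotated starts. miR-181b-5p of the first cluster was at 225, 143.8 and 224 in High and 609, 679 and 738 in Low (−1.79, SE 0.18, adjusted p = 2.48e-05). miR-181d-5p, with 22 of 23 bases matching, was at 596, 548 and 698 against 1298, 1704 and 1639.9 (−1.33, SE 0.16, adjusted p = 0.000105). miR-181a-5p, the most abundant, had a log2 difference of −0.44 and only just passed, with its call lost in 13 of 17 alternatives (adjusted p = 0.0494, and 0.593 after rescaling). miR-181c-5p, which shares a transcript with miR-181d, was at 901, 1447 and 1208 in High and 1064, 1627 and 1112 in Low with overlapping groups (−0.10, adjusted p = 0.818).

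**Figure D3:**
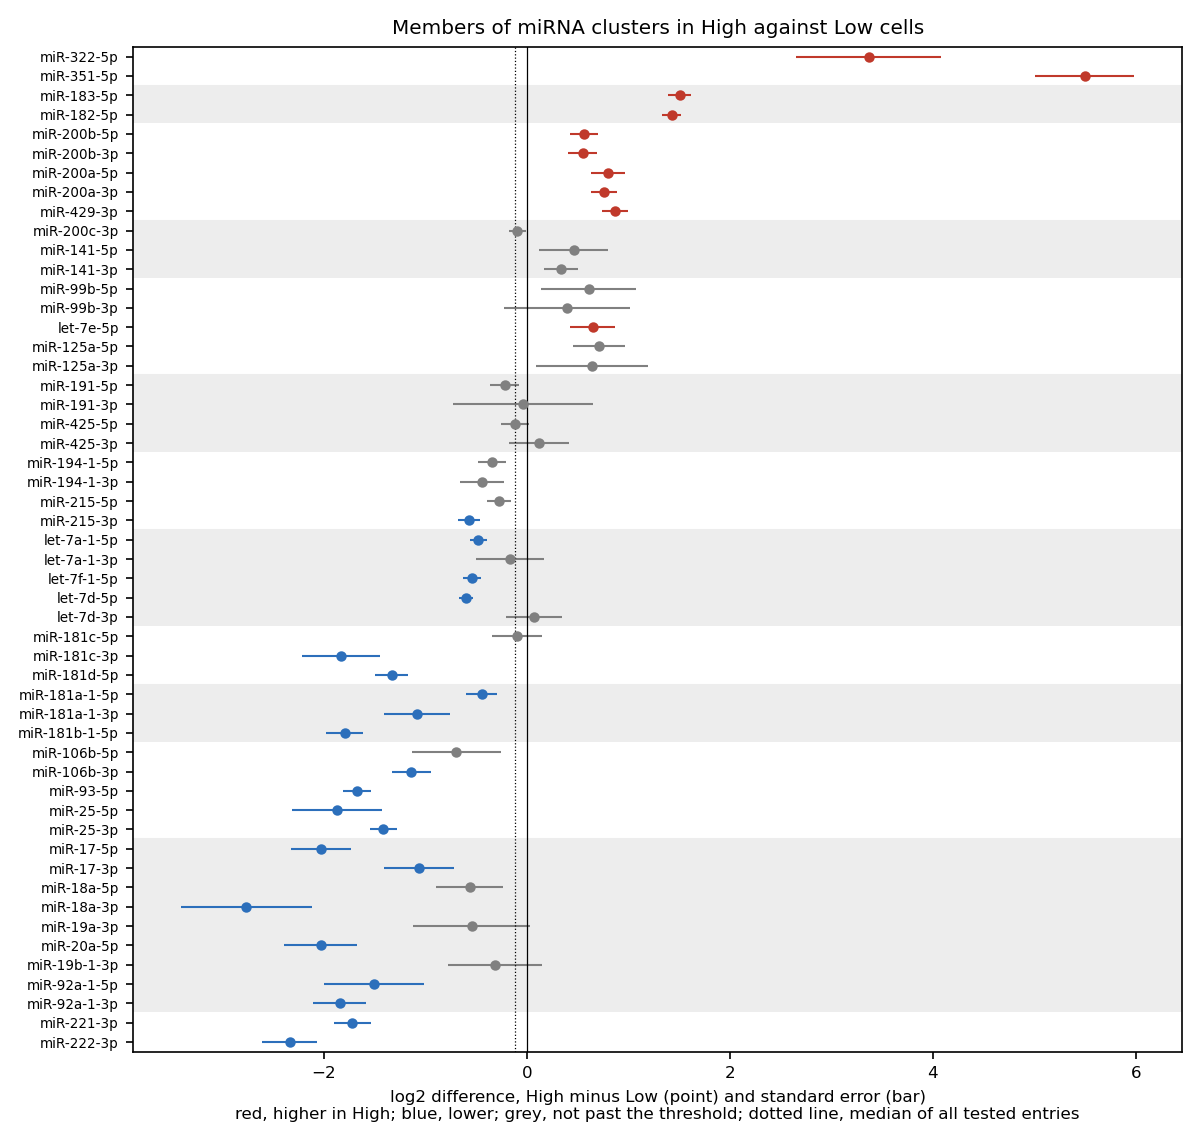
Log2 difference of High minus Low with its SE for each tested arm, grouped by genomic cluster (alternating bands). Red arms were higher in High, blue arms lower and grey arms not past the threshold, and the dotted line is the median of all tested entries at −0.11. The miR-200b, miR-200a and miR-429 arms are all red and the miR-200c and miR-141 arms all grey, while the miR-17, miR-106b and miR-221 bands lie to the left of 0.

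miRNAs linked to epithelial differentiation differed in both directions. miR-203-3p, which ends proliferation in stratified epithelia, was at 313, 337 and 333 in High and 1094, 1321 and 965 in Low (−1.77, SE 0.22, adjusted p = 9.88e-05). miR-802-5p was at 94.5, 72.1 and 81.9 against 287, 246 and 291.6 (−1.72, SE 0.26, adjusted p = 0.000416). miR-378-3p, encoded in the metabolic coactivator gene Ppargc1b, was at 4414, 3744 and 4325 against 9723, 9901 and 11654 (−1.32, SE 0.14, adjusted p = 3.42e-05). Of 9 tested members of the differentiation list 3 were lower and 1, miR-22-3p, higher, and 3 and 2 after rescaling, beside 24% lower and 8.36% higher among all annotated starts. Of the 7 tested miRNAs under control of hepatocyte nuclear factors, which are abundant in enterocytes, 0 were higher and 1 was lower, a share below the 24% of all annotated starts. This was miR-215-3p at 358, 358 and 451.2 against 579, 561 and 578 (−0.56, adjusted p = 0.00236), and it did not pass after rescaling (0.137). Their summed level was 133528 to 159853 in High and 163394 to 191538 in Low.

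miRNAs linked to regeneration and stem cells were lower in High in 5 of 8 tested cases and higher in 1, or 5 and 2 after rescaling, beside 24% and 8.36% of all annotated starts. Of the tested members, miR-203-3p, miR-22-3p and miR-31-5p stand on both this list and the differentiation list. miR-21-5p, an inhibitor of several tumour suppressors, was at 10454, 10270.1 and 11959.9 in High and 19809.8, 30888 and 24211 in Low (−1.18, SE 0.15, adjusted p = 0.000123). miR-34a-5p, a p53 target, was at 17.4, 41.1 and 41.8 against 91.5, 71.1 and 145.8 (−1.63, SE 0.36, adjusted p = 0.00517). miR-31-5p, which the intestine needs to regenerate after injury, was at 7847, 7257 and 7993 against 7693, 6399.7 and 7168 and did not pass (0.12, SE 0.14, adjusted p = 0.593, and 0.0187 after rescaling).

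The miR-29 and miR-30 families, known for repressing matrix genes and signalling genes, depended on the scaling. Of 9 tested members 3 were lower and 0 higher, but 0 were lower and 2 higher after rescaling. The share lower is near the 24% of all annotated starts. miR-29a-3p had the largest decrease of them, at 167, 163 and 156 in High and 261, 247 and 315 in Low (−0.75, SE 0.17, adjusted p = 0.00581, and 0.107 after rescaling). On the list of miR-15, miR-16 and their relatives, 5 were tested, with miR-322-5p, admitted through High alone, higher and miR-15b-5p and miR-16-5p lower, and miR-322-5p alone passed after rescaling. Of the embryonic stem cell miRNAs of the miR-290 and miR-302 clusters, 9 were tested and 0 passed in either fit, and their summed level ran from 0 to 2656 in High and 0 to 1177 in Low.

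Few miRNAs of other cell types passed, and the sums of their lists were low. The summed level of the haematopoietic list was 706 to 752 in High and 921 to 1198 in Low, and that of the mesenchymal list 307 to 369 in High and 564 to 738 in Low. Of 6 tested haematopoietic miRNAs 1 was lower (miR-146b-5p) and 0 higher, and of 4 tested mesenchymal miRNAs 1 was lower (miR-10b-5p) and 0 higher, beside 24% lower among all annotated starts. The call of miR-146b-5p was lost in 12 of 17 alternatives (adjusted p 0.0183 to 0.657). After rescaling no miRNA of these lists passed. The defining markers miR-142-3p and miR-145-5p were at 0 in all 6 libraries, and so were miR-144-3p of erythroid and miR-9-5p of neural cells. However, miR-142-3p, miR-145-5p and miR-144-3p were at 0 in all 14 libraries, Non-sorted included, so a value of 0 was not particular to High and Low. Other immune miRNAs were listed: miR-142-5p, from the other arm of the miR-142 hairpin, was at 12.9, 4.18 and 0 in High and 32.3, 0 and 16.8 in Low, and miR-150-5p of lymphocytes at 22.6, 0 and 0 and 74.2, 0 and 39.1. miR-155-5p of activated immune cells was at 31.8, 10.8 and 11.1 in High and 103, 42.4 and 86.8 in Low and did not pass (−2.13, SE 0.80, adjusted p = 0.0671). miR-143-3p of smooth muscle was at 6.63, 14.3 and 6.87 against 53.0, 52.0 and 9.66 (adjusted p = 0.0604). The part of such cells in the lower levels of miR-181, miR-221 and miR-222 in High was not tested. None of the 4 neuronal, 1 endothelial and 1 erythroid miRNAs tested passed, but after rescaling the neuronal miR-132-3p was higher in High (adjusted p = 0.02), and the neuronal sum was 234 to 285 in High and 165 to 266 in Low.

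Of the 10 annotated-start entries with the largest mean over the 6 libraries, miR-375-3p alone passed. miR-192-5p, an enterocyte miRNA, was at 89615, 113889 and 103896 in High and 102955, 139528 and 112233 in Low (−0.20, SE 0.13, adjusted p = 0.291). let-7b-5p was at 87923, 72852 and 96704 against 85493, 69034 and 93868 (0.054, SE 0.14, adjusted p = 0.822). miR-26a-5p was at 35150.2, 34189 and 28122 against 30296, 27021 and 27266 (0.20, SE 0.10, adjusted p = 0.169). The sign of each of these small differences depended on the scaling. After rescaling let-7b-5p and miR-26a-5p passed as higher in High (adjusted p = 0.043 and 0.00885), and miR-192-5p did not (0.571). With quantile normalization miR-192-5p was lower in High (−1.08, adjusted p = 6.4e-06).

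Summed by seed, 48 of the tested families passed (31%), 16 higher in High (10.3%) and 32 lower (20.6%). After rescaling the split was 25 higher and 24 lower. A seed sum follows its abundant members, and in AGCAGCA it hid the opposite difference of the rare miR-322-5p. The seed AGUGCAA of miR-130 and miR-301 was lower in High, at 277 ± 56.8 (SD, n = 3) against 515 ± 84.5 (−0.90, adjusted p = 0.00256), and so was GCAGCAU of miR-103 and miR-107, at 1765 ± 159.8 against 2693 ± 168 (−0.61, adjusted p = 0.011, and 0.144 after rescaling). ACAUUCA, the sum of the miR-181 5p arms, was at 3583 ± 336 against 5687 ± 545 (−0.67, adjusted p = 0.000556). AACAGUC of the neuronal miRNAs miR-132 and miR-212 was higher in High, at 160.1 ± 17.96 against 97.97 ± 36.1 (0.76, adjusted p = 0.047), although neither member passed alone. These 4 families and the seeds of let-7, miR-16, miR-125a and the miR-200 group were singled out after their values were seen.

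Both arms of a hairpin mostly moved together. Of 65 hairpins with both arms tested, 53 had arms with the same sign, 12 had both arms past the threshold (3 higher, miR-210 among them with a 5p arm admitted through High alone, and 9 lower) and 0 had arms past it in opposite directions. The ratio of 5p to 3p arm differed in 2 hairpins (3.08%), and in 12 at an unadjusted p under 0.05. In miR-181c, the 5p arm was at similar levels in both populations while miR-181c-3p was at 26.6, 23.3 and 33.3 in High and 102, 126.6 and 77.8 in Low (−1.83, adjusted p = 0.00413). The log2 ratio of the arms was 5.35 ± 0.47 (SD, n = 3) in High and 3.62 ± 0.23 in Low, a difference of 1.74 (SE 0.40, adjusted p = 0.0342 in limma). In miR-1981 the 3p arm was at 1.49, 0 and 0 in High and 8.07, 6.69 and 7.34 in Low, close to the detection limit. Without High 2 and Low 2, and without any of 5 single libraries, 0 arm ratios passed.

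Among shifted starts, 24 of 313 were higher in High (7.67%) and 52 were lower (16.6%), 24.3% in all. Of 297 shifted entries compared with the annotated start of the same arm, the ratio of the forms differed in 8 (2.69%), 3 higher in High (1.01%) and 5 lower (1.68%), and in 57 at an unadjusted p under 0.05. Of 107 forms that start 1 base downstream, 90 had a difference within 0.5 of that of the annotated start, and of 67 that start 1 base upstream, 51. Forms further away agreed less, with 30 of 69 at 2 or more bases downstream and 10 of 54 at 2 or more upstream. Some forms of the miRNAs above moved with them: the form of miR-183-5p that starts 1 base downstream was at 1617, 1659 and 1607 in High and 507, 491 and 492 in Low (1.71, SE 0.11, adjusted p = 1.01e-06). That of miR-203-3p was at 246, 328 and 306 against 887, 1247 and 863 (−1.75, SE 0.17, adjusted p = 2.48e-05). Such forms carry a seed moved by 1 base.

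A few ratios of starts did differ. The form of miR-221-3p that starts 1 base downstream was at 1.58, 0 and 0 in High and 18.9, 23.5 and 22.4 in Low, which was 0.25% (SD 0.43) of the pair of forms in High and 3.49% (0.42) in Low (adjusted p = 6.85e-04 in limma, and 0.0811 in the fit to the 6 libraries alone). The form of miR-5117-5p that starts 1 base upstream was at 34.5, 32.2 and 23.9 in High and 187, 145.3 and 180.98 in Low, 8.82% (1.92) of its pair in High and 24.6% (2.54) in Low (adjusted p = 6.85e-04, and 0.0550 in the fit to the 6 libraries alone). let-7e-5p starting 1 base upstream was the reverse of its annotated form, 0.45% (0.11) of the pair in High and 1.28% (0.30) in Low (adjusted p = 0.0402), a call lost in 7 of 14 alternatives. The other 5 belong to miR-320-3p, miR-5109 and miR-5115. Among them, the miR-5109 form that starts 5 bases upstream was lower in High relative to its annotated start (adjusted p = 1.41e-07 in limma). It was the only start ratio past the threshold that kept its call in every alternative run, lost in 0 of 15. Its adjusted p was at most 0.00127, in the fit to the 6 libraries alone. The size of its log2 difference varied widely over the alternatives, from −8.30 to −2.86. The miR-5117-5p pair was the only start ratio past the threshold with both forms at a mean of at least 100 in High or Low. The miR-5109 pair thus held a form below that level in both populations. The number of calls depended on High 1, without which 24 start ratios passed, and was 5 without High 2 and Low 2.

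**Figure D4:**
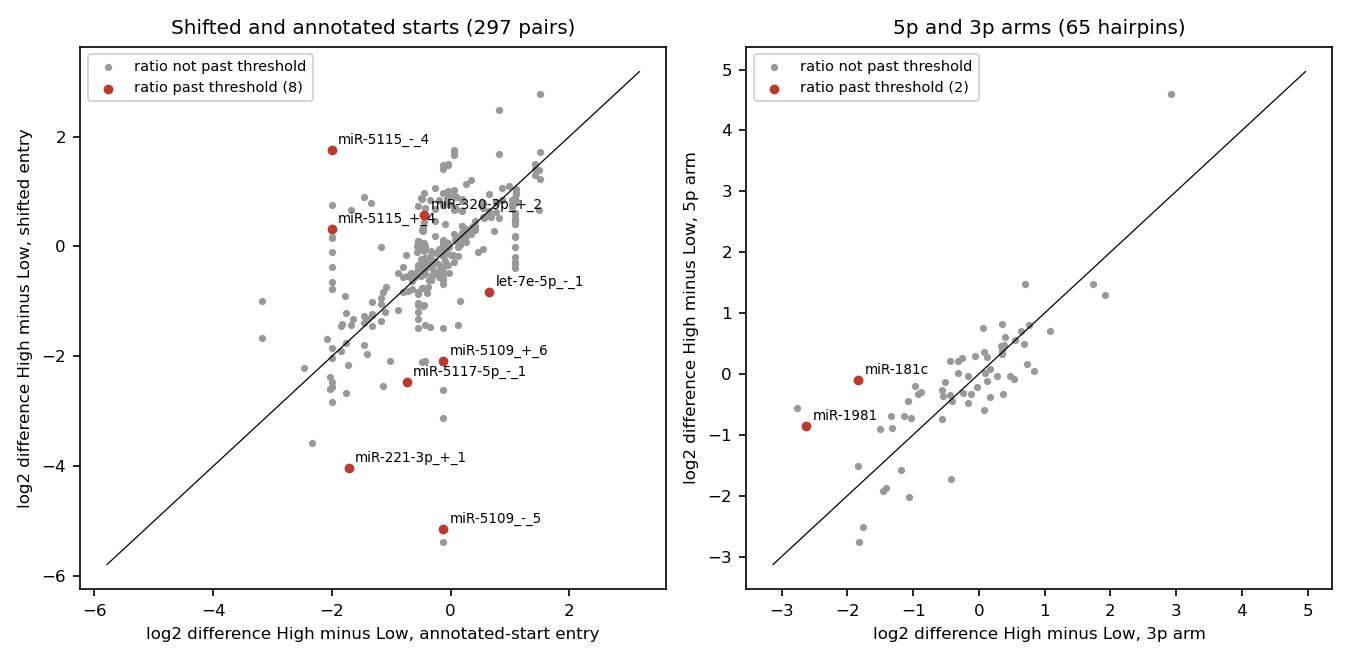
Left, log2 difference of High minus Low of each shifted entry against that of its annotated start (297 pairs). Right, that of the 5p arm against the 3p arm (65 hairpins). The line marks equal differences, and red points are the 8 and 2 ratios past the threshold. Most points lie near the line, with miR-181c and miR-1981 above it on the right.

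The other sorted populations show where High and Low stood for each miRNA. These comparisons share their libraries, so values are set side by side, and entries past the threshold among all 588 were 50.5% in High against Sublow, 66.3% in High against Negative, 34.7% in Low against Sublow and 66% in Low against Negative. miR-672-5p, miR-183-5p and miR-200a-3p had their highest group mean in High and lower means in Low, Sublow and Negative in turn. miR-183-5p averaged 865 ± 76.4 (SD, n = 3) in Sublow and 401 ± 54.3 in Negative, below the Low libraries (Low minus Sublow 0.46, adjusted p = 0.00747). miR-672-5p was at 11.54, 11.52 and 9.32 in Sublow and 10.4, 6.71 and 2.37 in Negative, so Low was also higher than either (Low minus Sublow 1.42, adjusted p = 0.0166).

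For miR-210-3p and miR-22-3p, Low was the lowest of the 4 sorted populations. miR-210-3p was at 34.9, 55.6 and 39.5 in Sublow and 25.7, 24.4 and 18.2 in Negative, above every Low value in each library (Low minus Sublow −1.54, adjusted p = 0.000544, and Low minus Negative −0.65, adjusted p = 0.0368). High nonetheless stood above Sublow (1.38, adjusted p = 0.000708). miR-22-3p was at 1927, 2406 and 1761 in Sublow and 3529, 3929 and 3863 in Negative. High did not pass against Sublow (−0.14, adjusted p = 0.46) and was below Negative (−1.04, adjusted p = 5.56e-05).

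For several miRNAs lower in High, High did not pass against Negative cells and Low was above both. miR-222-3p was at 141.3, 131 and 205.9 in Sublow and 37.4, 31.9 and 59.5 in Negative, and High did not pass against Negative (0.56, adjusted p = 0.0878). miR-152-3p was at 70.7, 83.8 and 95.6 in Sublow and 8.61, 6.92 and 17.6 in Negative (High minus Negative 0.12, adjusted p = 0.82). miR-92a-3p averaged 4065 ± 711 in Negative and 4253 ± 1651 in High (adjusted p = 0.996). In the case of miR-17-5p, miR-93-5p and miR-221-3p, by contrast, High was below Negative too. miR-17-5p averaged 375.1 ± 10.5 (SD, n = 3) in Negative (High minus Negative −1.55, adjusted p = 0.000582), while Low did not pass against Negative (0.48, adjusted p = 0.166).

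miR-203-3p, miR-802-5p and miR-378-3p had their lowest values in High and higher ones in Low and then Sublow. miR-203-3p was at 1857, 1461 and 1908 in Sublow and 2473, 2663 and 2402 in Negative, above Low in each case (Low minus Negative −1.17, adjusted p = 0.000508). miR-802-5p was at 794, 369 and 658 in Sublow and 537, 514 and 789.6 in Negative, which overlapped each other. miR-378-3p averaged 18731 ± 2073 (SD, n = 3) in Sublow and 19736 ± 1388 in Negative, against 10426 ± 1067 in Low and 4161 ± 364 in High.

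**Figure D5:**
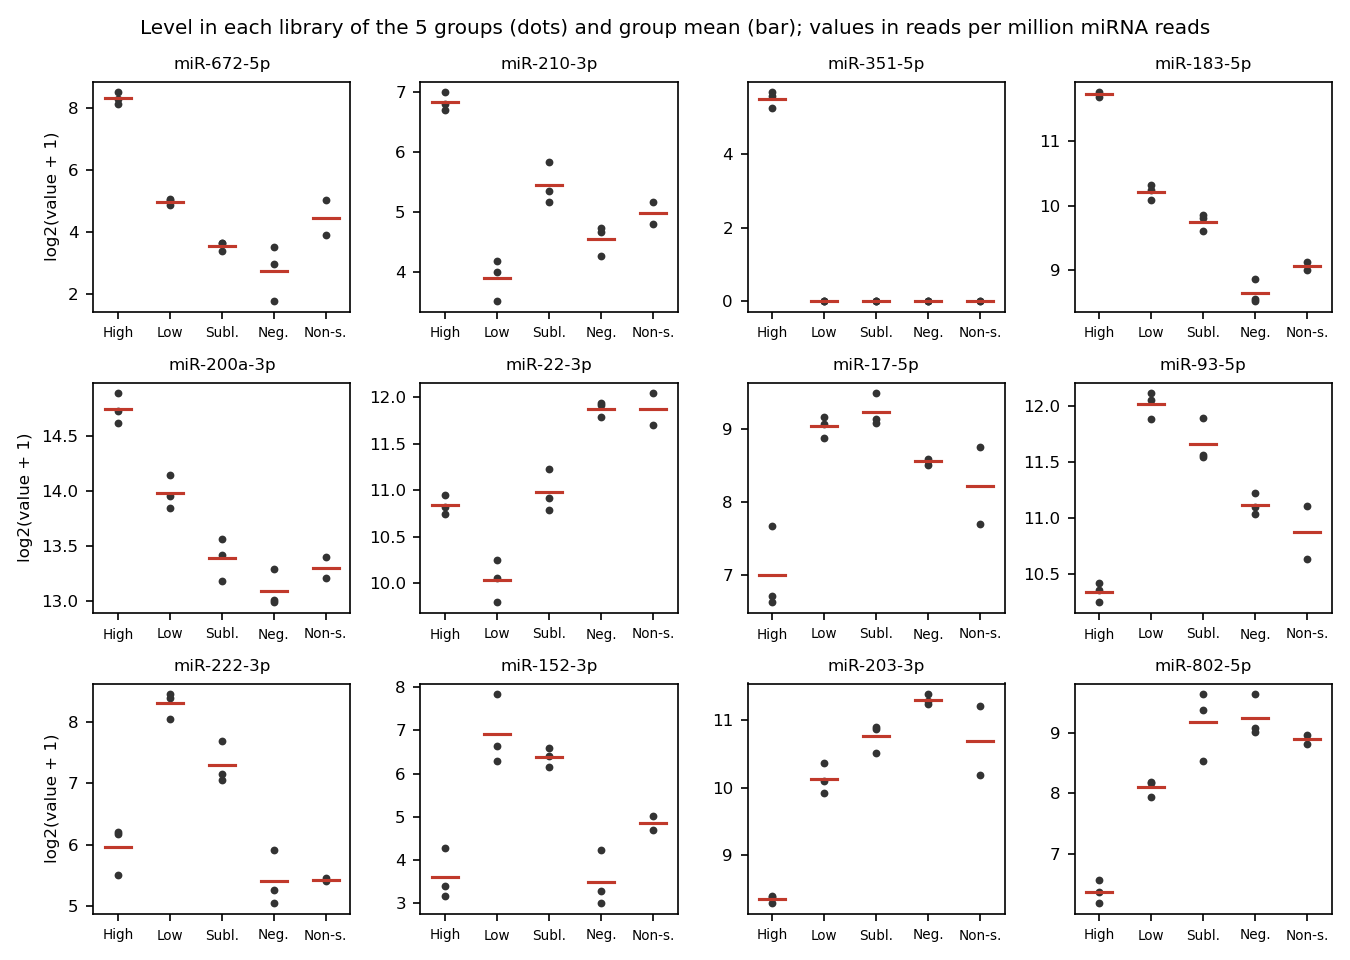
Level of 12 miRNAs as log2(value + 1), values in RPM, in each library of High, Low, Sublow, Negative and Non-sorted cells (dots) with the group mean (bar). miR-351-5p is above 0 in the High libraries only, miR-210-3p and miR-22-3p are lowest in Low, and miR-203-3p and miR-802-5p are lowest in High.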

How the data were processed

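Small RNA libraries of Sox9-eGFP sorted mouse intestinal cells were analysed from the table the authors deposited. Per the file headers its values are RPM, scaled over the miRNA entries of each library, which sum to 1e+06. The build is mm9, per the submitters' processing notes. Aligner and counter: not given in the sources used here. Entry suffixes with a sign and a number were read as shifted starts, since the header does not define them. Low values were whole reads within 0.1 read in only 70.1 to 86.4%, so no count test was run. Depth was estimated at 1.89 to 13.4 M reads (M, 1e+06) in the 6 High and Low libraries.

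Log2(value + 1) of entries with at least 10 in at least 3 libraries was fitted with limma 3.58.1 (R 4.3.3, empirical Bayes with trend) over all 14 libraries and 5 groups. All p-values are two-sided and adjusted by Benjamini-Hochberg over every entry of a comparison, at a threshold of 0.05. The scale understates fold changes of low entries. Differences are High minus Low, and ratios are ratios of means. Starts, arms and seed sums were fitted in the same way. The fit was tested on simulated data. Named by rule were up to 15 annotated-start and 6 shifted entries per direction with a mean of at least 100 and no overlap, the 10 most abundant entries, up to 8 seed families per direction, partners on a hairpin or in a cluster, members of 16 lists, and entries listed at 0 in a whole group. Members, lists and rule were chosen with earlier results of these data known. Alternatives were other pseudocounts, filters, scalings, fits, lanes and left-out libraries. Figures were drawn with matplotlib 3.10.9.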

Additional observations from a re-analysis of the deposited data

How the results depend on the processing

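Of the 89 annotated-start entries past the threshold, 64 to 89 kept their call in each alternative that tested all of them, and 0 reversed. With a filter of 100 in 3 libraries, 100 entries passed (28 higher, 72 lower), 0 arm ratios and 21 seed families lower. Higher entries numbered 31 with no filter, 30 with combined-lane libraries alone and 27 without High 2 and Low 2, an alternative chosen after seeing the data. Median-ratio rescaling gave 81 higher and 70 lower, and 25 seed families higher. Without High 2 and Low 2, 9 seed families were higher, 5 start ratios passed and 0 arm ratios. Start ratios past the threshold numbered 5 with a pseudocount of 0.1 or 5, 49 with no filter and 2 in the fit to the 6 libraries. Arm ratios numbered 1 with a pseudocount of 0.1, and 0 with no filter or combined-lane libraries alone. Leaving out single libraries gave 33 to 42 higher and 94 to 110 lower entries, 5 to 24 start ratios, 0 to 2 arm ratios and 41 to 47 seed families. The cause was not tested.

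Small differences changed sign. After rescaling they were 0.12 for miR-192-5p, 0.29 for let-7c-2-5p, 0.20 for let-7c-1-5p and 0.056 for miR-215-5p. With quantile normalization they were −0.44 for let-7b-5p, −0.18 and −0.16 for miR-26a-5p of either hairpin and −0.042 for miR-7a-5p of the second. let-7b-5p was at −0.0084 with combined-lane libraries alone, and ranged from −0.072 (without Low 2) to 0.17 with single libraries left out. let-7c-2-5p ranged from −0.10 to 0.047 (without High 2), and miR-7a-5p of the second hairpin from −0.0025 (without High 1) to 0.26.

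Same-numbered High and Low libraries correlated in their deviations from the group means at r of 0.077 to 0.75, and differently numbered ones at −0.59 to 0.46. The main fit did not take the numbers to pair libraries, although same-numbered libraries share a code of unstated meaning. With the replicate number as a block, 177 entries, 9 start ratios, 3 arm ratios and 53 seed families passed, and of the 89 annotated-start calls only miR-146b-5p (adjusted p = 0.0537) and miR-181a-5p of either hairpin (0.0547 for the first) were lost. Not every library correlated best with its own number. Depth limits rare miRNAs, since values under the smallest listed value of a library, taken as about 10 reads, are listed as 0.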
